A study of Homo sapiens with 4 samples.

Results

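The genes described here are those of cholesterol and fatty acid metabolism in KGN, a cell line derived from a human granulosa cell tumour. They were taken from a list of 56 genes that was drawn up with earlier results of these data known. Of these, 50 were measured by a probe set that named exactly 1 gene, out of 17687 genes on the array. The other 6 (NPC2, DGAT1, ELOVL1, ACSL3, LPIN1 and FADS1) were not analysed here. The sterol genes numbered 29 of 30 listed and covered the mevalonate steps (6), the steps from squalene to cholesterol (10), sterol sensing (5) and sterol trafficking, export and esters (8). The genes of fatty acid synthesis and storage numbered 16 of 21, and a further 5 of 5 belong to fatty acid oxidation. RNA was hybridised to Clariom S Human arrays in 4 groups of 1 array each. Cells of the siYT+8Br-cAMP and siNC+8Br-cAMP groups were kept for their last 24 h with 0.5 mM 8Br-cAMP, an analogue of cyclic AMP that enters cells. Cells of the siYT and siNC groups had the same change of medium without it. Both siYT groups had received siRNAs against YAP and TAZ at 5 nM each, and both siNC groups a control siRNA at 10 nM, 48 h before the medium was changed.

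Cholesterol is built from acetyl-CoA through mevalonate and squalene, and its synthesis is switched by SREBP2 (encoded by SREBF2), which SCAP carries out of the endoplasmic reticulum and INSIG proteins hold back when sterol is plentiful. SREBP1 (SREBF1) does the same mainly for fatty acid synthesis, desaturation and elongation. Granulosa cells use cholesterol as the starting material of steroid hormones and keep a reserve of it as esters in lipid droplets, while YAP and TAZ are the coactivators through which the Hippo pathway acts on TEAD transcription factors, and cyclic AMP is the messenger of the gonadotropins.

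Every value is a deposited log2 level, and every difference is in log2 units. A call by size needed a difference of 1 or more (2-fold) between 2 arrays, with the brighter array at or above a level filter. That filter was set at 6.22, the median over all gene-named values. No group had a replicate, so no size could be set against the spread between cultures, and the number of arrays limits the precision. A secondary additive fit with limma across all 17687 genes gave 1 siRNA and 1 8Br-cAMP effect per gene, and only genes that passed it at an adjusted p of 0.05 are said to have risen or fallen. Its error comes from 1 residual degree of freedom, which also holds any difference between the effects in the 2 cases, so these p-values say nothing of how cultures vary. Deposited values reached 19.36, above the log2 maximum of 16 of a 16-bit scanner, so an unnamed rescaling is possible and folds may not equal ratios of brightness. Array medians lay between 6.20 and 6.27.

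The siRNA targets were lower in both media. YAP1 was at 6.29 in siYT+8Br-cAMP, 9.46 in siNC+8Br-cAMP, 6.80 in siYT and 9.48 in siNC (limma mean difference -2.93, SE 0.315, adjusted p = 0.000391). WWTR1, which encodes TAZ, was at 5.35 in siYT+8Br-cAMP, 9.13 in siNC+8Br-cAMP, 5.45 in siYT and 7.58 in siNC (limma mean difference -2.96, SE 0.401, adjusted p = 0.00144). Of 10 granulosa markers, INHBA, GATA4, STAR and KRT18 reached the filter on all arrays, FSHR, CYP19A1 and NR5A1 on some, and the defining genes FOXL2, AMHR2 and INHA on none. Among 6 measured theca and stromal fibroblast markers, PDGFRA and COL1A1 reached it on all arrays, LUM and DCN on some, and CYP17A1 and INSL3 on none. The median level of those 6 was 7.82 in siYT+8Br-cAMP, 4.99 in siNC+8Br-cAMP, 9.52 in siYT and 5.37 in siNC, so it moved with the siRNA. That of the 10 granulosa markers was 8.92 in siYT+8Br-cAMP, 8.29 in siNC+8Br-cAMP, 8.35 in siYT and 5.27 in siNC, so it was lowest in siNC. The part of either list in the results was not tested. None of 6 adipocyte markers reached the filter on any array (highest level 5.39). Of 4 hepatocyte markers only SERPINA1 did, on some arrays, and of 3 leukocyte markers only CD68 did, on all. In bulk RNA, fewer cells of a type and less RNA per cell cannot be told apart.

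Most of the lipid genes were well detected. On all 4 arrays 41 of 50 reached the filter (82.0%, against 44.6% of all genes), and ABCG1, PLIN2, HILPDA and GPAM reached it on some. The mevalonate enzymes MVK, PMVK and MVD, the lipase LIPE and the carboxylase ACACB reached it on no array. The highest of the 4 values lay in siYT+8Br-cAMP for 18 members, in siNC+8Br-cAMP for 9, in siYT for 14 and in siNC for 9. Over all 17687 genes the counts were 4718, 3492, 4498 and 4979, in the same order. In 23 members the 4 arrays lay within 1 log2 unit of each other, and 25 had no call in any comparison. The widest spread of those 23 was that of NPC1 (0.97), and 57.4% of all genes had a smaller one. Such small spreads were thus no more common in members than in all genes. The share of all genes without a call was not counted. The largest spreads over the 4 arrays belonged to SCD (4.04), FADS3 (2.99), PLIN2 (2.63), ELOVL6 (2.40) and LSS (2.35), and between 94.3% and 98.8% of all genes had a smaller spread than these 5.

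The first comparison asked what loss of YAP and TAZ did to these genes in each medium. SCD, the stearoyl-CoA desaturase that makes monounsaturated fatty acids, rose, as did TM7SF2, a sterol reductase of cholesterol synthesis. FADS3, a member of the fatty acid desaturase family, and ELOVL6, which lengthens saturated and monounsaturated fatty acids, fell. SCD was at 14.97 in siYT+8Br-cAMP, 12.51 in siNC+8Br-cAMP, 15.47 in siYT and 11.43 in siNC. Both siYT arrays lay above both siNC arrays, by 4.04 without 8Br-cAMP (16.5-fold) and 2.46 with it (5.52-fold), and the limma mean difference was 3.25 with an SE of 0.393 (adjusted p = 0.000751). TM7SF2 was at 8.46 in siYT+8Br-cAMP, 6.82 in siNC+8Br-cAMP, 8.37 in siYT and 6.84 in siNC. Its siRNA difference was nearly equal in both media, 1.54 without and 1.64 with 8Br-cAMP, and its limma mean difference was 1.59 with an SE of 0.307 (adjusted p = 0.0101). The siNC values of TM7SF2 lay under 6.95, the 95th percentile of 612 negative control probe sets.

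FADS3 was at 10.12 in siYT+8Br-cAMP, 12.16 in siNC+8Br-cAMP, 12.31 in siYT and 13.10 in siNC. It was lowest where both treatments met, with siRNA differences of -0.79 without and -2.04 with 8Br-cAMP, and limma gave a mean difference of -1.41 with an SE of 0.363 (adjusted p = 0.0373). ELOVL6 was at 9.86 in siYT+8Br-cAMP, 10.58 in siNC+8Br-cAMP, 8.76 in siYT and 11.16 in siNC. Its deficit was larger without 8Br-cAMP, at -2.40, than with it, at -0.73, and limma gave a mean difference of -1.56 with an SE of 0.403 (adjusted p = 0.0378). With log2 of the linear value plus 32, none of these 4 passed in limma (adjusted p from 0.0619 to 0.209).

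**Figure D1:**
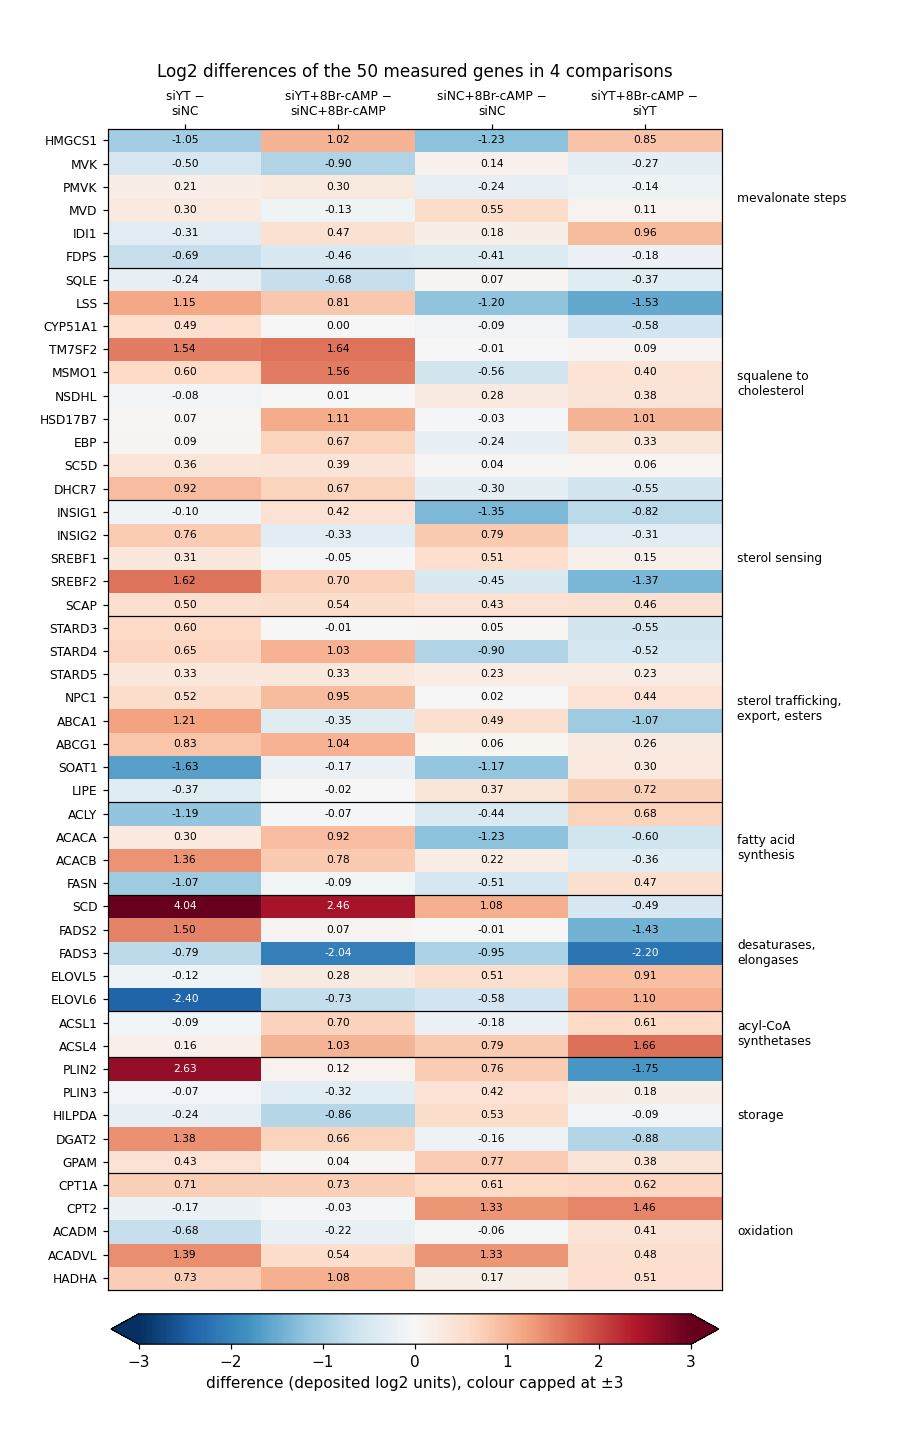
Log2 differences (deposited log2 units) of the 50 measured genes, in rows grouped by role, with 1 column for each siRNA difference and each 8Br-cAMP difference (deposited values, 1 array a group). SCD is the deepest red in both siRNA columns (4.04 and 2.46), TM7SF2 is red in both (1.54 and 1.64), and PLIN2 is deep red without 8Br-cAMP (2.63) and near white with it (0.12).

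By size alone, the siRNA comparison without 8Br-cAMP called 9 of 50 members higher (LSS, TM7SF2, SREBF2, ABCA1, SCD, FADS2, PLIN2, DGAT2 and ACADVL) and 5 lower (HMGCS1, SOAT1, ACLY, FASN and ELOVL6), leaving 36 without a call. These shares of 18.0% and 10.0% stood beside 7.6% and 7.32% of all genes. With 8Br-cAMP it called 9 higher (HMGCS1, TM7SF2, MSMO1, HSD17B7, STARD4, ABCG1, SCD, ACSL4 and HADHA) and 1 lower (FADS3), or 18.0% and 2.0%, against 5.52% and 5.94% of all genes. Because lipid genes were more often above the filter than other genes, the same shares were taken over the 8894 genes whose mean level reached it. There, 21.4% of 42 members were called higher without 8Br-cAMP, against 13.8% of genes, and 19.0% with it, against 9.82%. For lower calls the shares were 11.9% of members against 12.9% of genes without 8Br-cAMP, and 2.38% against 10.5% with it. Called higher in both media were TM7SF2 and SCD (2 of 50, against 3.25% of all genes), and 0 were called lower in both, against 3.63%.

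In limma, 2 of 50 members rose and 2 fell with the siRNA, against 4.3% and 4.67% of all genes. Over genes whose mean level reached the filter, 4.76% of 42 members rose and 4.76% fell, against 7.33% and 7.62% of genes. At an unadjusted limma p under 0.05 there were 15 higher and 4 lower, 38.0% of the members against 22.2% of all genes. This unadjusted share was not counted over genes past the filter. The siRNA difference without 8Br-cAMP and that with it share no array.

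**Figure D2:**
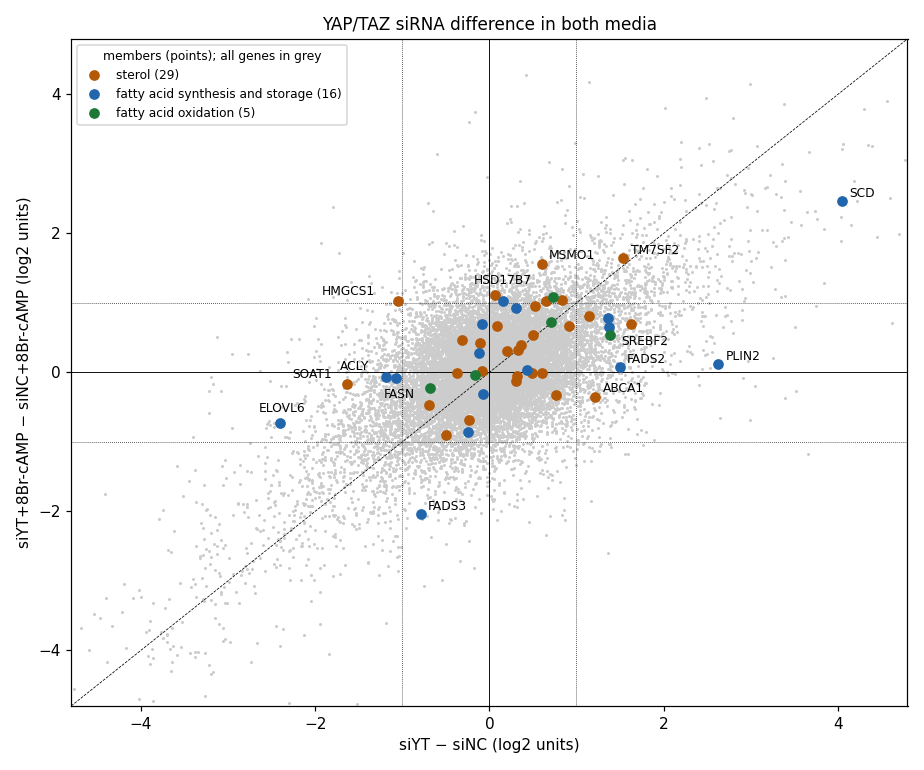
siRNA difference without 8Br-cAMP (x axis) against that with 8Br-cAMP (y axis), both in log2 units, for the 29 sterol genes (brown), 16 genes of fatty acid synthesis and storage (blue) and 5 of fatty acid oxidation (green) over all 17687 genes in grey, with dotted lines at the size threshold of 1 and a dashed line of equality; 27 genes lie outside the axes of ±4.8. SCD stands far to the upper right, while PLIN2, ABCA1 and FADS2 lie right of 1 with y values near 0 and HMGCS1 lies in the upper left.

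The starts of these genes were looked up for sequence motifs, since SREBP, cyclic AMP and TEAD factors each have a known binding motif. The 250 bases before the RefSeq start (GRCh38.p14) are shown for the 4 genes that limma called and for SREBF2, read on the strand of the gene, 5′ to 3′, with motif matches in capitals. The windows are chr10:100346983-100347232 on the plus strand for SCD, chr11:65111622-65111871 on the plus strand for TM7SF2, chr11:61891546-61891795 on the minus strand for FADS3, chr4:110198616-110198865 on the minus strand for ELOVL6 and chr22:41832855-41833104 on the plus strand for SREBF2.
SCD: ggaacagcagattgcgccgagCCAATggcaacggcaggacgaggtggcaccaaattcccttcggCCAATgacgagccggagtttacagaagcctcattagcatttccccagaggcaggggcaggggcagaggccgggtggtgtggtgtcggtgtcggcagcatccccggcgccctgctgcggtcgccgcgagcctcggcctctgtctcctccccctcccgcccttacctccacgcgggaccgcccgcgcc
TM7SF2: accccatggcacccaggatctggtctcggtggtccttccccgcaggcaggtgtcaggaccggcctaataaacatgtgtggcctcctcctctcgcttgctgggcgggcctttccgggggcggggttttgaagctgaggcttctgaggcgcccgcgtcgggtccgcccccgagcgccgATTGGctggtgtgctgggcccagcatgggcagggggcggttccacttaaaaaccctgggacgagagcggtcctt
FADS3: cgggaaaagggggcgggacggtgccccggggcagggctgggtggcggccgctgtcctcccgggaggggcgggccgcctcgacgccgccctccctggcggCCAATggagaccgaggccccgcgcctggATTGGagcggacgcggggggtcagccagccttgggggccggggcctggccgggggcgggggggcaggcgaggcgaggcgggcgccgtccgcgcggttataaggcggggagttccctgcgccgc
ELOVL6: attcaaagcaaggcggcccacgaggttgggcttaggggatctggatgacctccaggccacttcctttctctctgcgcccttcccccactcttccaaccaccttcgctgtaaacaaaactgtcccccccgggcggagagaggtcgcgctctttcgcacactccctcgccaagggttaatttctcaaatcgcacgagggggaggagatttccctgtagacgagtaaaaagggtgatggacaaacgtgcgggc
SREBF2: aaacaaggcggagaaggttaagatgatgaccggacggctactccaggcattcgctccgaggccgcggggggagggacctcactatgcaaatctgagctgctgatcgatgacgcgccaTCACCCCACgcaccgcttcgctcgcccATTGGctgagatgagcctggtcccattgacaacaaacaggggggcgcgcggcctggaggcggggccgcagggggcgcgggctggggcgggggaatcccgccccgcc
The letters searched on both strands were TCACNCCAC for the sterol regulatory element, CCAAT for the CCAAT box, TGACGTCA for the cyclic AMP response element and CATTCC for the TEAD motif, and no member had overlapping matches of different motifs. SCD has CCAAT 229 and 186 bases before the start, TM7SF2 its reverse complement 74 bases before it, and FADS3 a match 151 and another 123 bases before it. SREBF2, whose product binds the sterol element, has a match to that element itself that begins 133 bases before the start, followed by a CCAAT box 106 bases before it. The window of ELOVL6 holds no match to the 4 motifs.

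Windows were at hand for 45 of the 50 measured members and for 14250 genes in all. The sterol element matched in 2 members (SREBF2 and ACSL1; 4.44%, against 0.961% of all windows). The CCAAT box matched in 25 members (55.6%, against 34.3%), in 18 of 27 sterol genes, 7 of 13 genes of fatty acid synthesis and storage and 0 of 5 oxidation genes. The cyclic AMP element matched in ELOVL5 alone (2.22%, against 2.3%) and the TEAD letters in PMVK, HSD17B7, EBP and STARD4 (8.89%, against 10.2%). Matches are descriptions of letters in these windows and do not show binding.

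Among the 6 mevalonate genes, HMGCS1, the cytosolic synthase that feeds the pathway, had siRNA differences of opposite sign in the 2 media. It was at 8.53 in siYT+8Br-cAMP, 7.51 in siNC+8Br-cAMP, 7.68 in siYT and 8.73 in siNC. The siRNA difference was -1.05 without 8Br-cAMP and 1.02 with it, so the arrays with both treatments and with neither were the high ones. HMGCS1 was the only member called in opposite directions in the 2 media, as were 18 of all genes, and its 2 differences cancelled in limma (mean -0.01, SE 0.446, adjusted p = 0.991). Both size calls were lost with log2 of the linear value plus 32, at -0.95 and 0.91. MVK, the mevalonate kinase, had the lowest mean siRNA difference of the group, at 4.85 in siYT+8Br-cAMP, 5.75 in siNC+8Br-cAMP, 5.12 in siYT and 5.62 in siNC. PMVK, the next kinase, had the highest, at 5.49 in siYT+8Br-cAMP, 5.19 in siNC+8Br-cAMP, 5.63 in siYT and 5.43 in siNC, and both kinases lay under the filter throughout. The isomerase IDI1, the prenyl synthase FDPS and the decarboxylase MVD had siRNA differences between -0.69 and 0.47 and no call.

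The 10 genes from squalene to cholesterol leaned upward in siYT cells, with a median siRNA difference of 0.43 without and 0.67 with 8Br-cAMP, against 0.02 and 0.06 over all genes. LSS, which closes squalene epoxide into lanosterol, was at 7.74 in siYT+8Br-cAMP, 6.93 in siNC+8Br-cAMP, 9.27 in siYT and 8.12 in siNC. It was higher in siYT cells by 1.15 without and 0.81 with 8Br-cAMP (limma mean 0.98, SE 0.311, adjusted p = 0.0828). MSMO1, the sterol methyl oxidase, was at 15.74 in siYT+8Br-cAMP, 14.18 in siNC+8Br-cAMP, 15.34 in siYT and 14.74 in siNC. Both siYT arrays were above both siNC arrays, by 0.60 without and 1.56 with 8Br-cAMP (limma mean 1.08, SE 0.341, adjusted p = 0.0821).

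HSD17B7, a ketosteroid reductase of cholesterol synthesis that can also make estradiol, was at 7.36 in siYT+8Br-cAMP, 6.25 in siNC+8Br-cAMP, 6.35 in siYT and 6.28 in siNC. Only the array with both treatments stood above the other 3, which lay close to the filter. With log2 of the linear value plus 32 its size calls were lost, at 0.86 for the siRNA with 8Br-cAMP, 0.79 for 8Br-cAMP after siYT and 0.81 for the difference of differences. SQLE, the squalene epoxidase, had the lowest mean siRNA difference of the 10, at 9.07 in siYT+8Br-cAMP, 9.75 in siNC+8Br-cAMP, 9.44 in siYT and 9.68 in siNC. CYP51A1, NSDHL, EBP, SC5D and DHCR7, the remaining enzymes of the post-squalene steps, had siRNA differences from -0.08 to 0.92 and no call. DHCR7, the last reductase of the pathway, had the largest of these, at 0.92 without and 0.67 with 8Br-cAMP (limma mean 0.79, SE 0.309, adjusted p = 0.156).

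Of the 5 sensing genes, SREBF2 stood highest in siYT cells without 8Br-cAMP. It was at 9.90 in siYT+8Br-cAMP, 9.20 in siNC+8Br-cAMP, 11.27 in siYT and 9.65 in siNC, and the siRNA difference was 1.62 without 8Br-cAMP (3.08-fold) and 0.70 with it. In limma the mean of 1.16 (SE 0.338) gave an adjusted p of 0.0614, which passed 0.05 under 5 of 7 alternatives. SREBF1 differed little between arrays, at 11.22 in siYT+8Br-cAMP, 11.26 in siNC+8Br-cAMP, 11.07 in siYT and 10.75 in siNC. INSIG1, which retains SCAP and is itself a target of SREBP, was at 7.50 in siYT+8Br-cAMP, 7.07 in siNC+8Br-cAMP, 8.32 in siYT and 8.42 in siNC. Its siRNA differences were -0.10 and 0.42, so it did not share the high siYT value of SREBF2. INSIG2, a related retention protein, was at 8.93 in siYT+8Br-cAMP, 9.26 in siNC+8Br-cAMP, 9.23 in siYT and 8.47 in siNC, and SCAP was 0.50 and 0.54 higher in siYT cells without a call.

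Among the 8 genes of trafficking, export and esters, the exporter ABCA1 and the esterifying enzyme SOAT1 had siRNA differences of opposite sign without 8Br-cAMP. ABCA1, which loads cholesterol onto apolipoproteins, was at 10.37 in siYT+8Br-cAMP, 10.72 in siNC+8Br-cAMP, 11.44 in siYT and 10.23 in siNC. SOAT1, which turns cholesterol into storage esters, was at 11.52 in siYT+8Br-cAMP, 11.68 in siNC+8Br-cAMP, 11.22 in siYT and 12.85 in siNC. The siRNA difference of ABCA1 was 1.21 without and -0.35 with 8Br-cAMP, and that of SOAT1 was -1.63 without and -0.17 with it. Neither passed in limma (ABCA1 mean 0.43, adjusted p = 0.596; SOAT1 mean -0.90, adjusted p = 0.199).

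ABCG1, a second exporter, was at 6.31 in siYT+8Br-cAMP, 5.27 in siNC+8Br-cAMP, 6.04 in siYT and 5.21 in siNC. Its siRNA differences were 0.83 without and 1.04 with 8Br-cAMP, but only its highest value reached the filter, and its call with 8Br-cAMP was lost at 0.99 under cyclic loess. STARD4, a cytosolic sterol carrier, was at 8.93 in siYT+8Br-cAMP, 7.90 in siNC+8Br-cAMP, 9.45 in siYT and 8.80 in siNC, higher in siYT cells by 0.65 without and 1.03 with 8Br-cAMP. Its limma mean of 0.84 (SE 0.312) did not pass (adjusted p = 0.136), and its size call was lost, at 0.94, with log2 of the linear value plus 32. The endosomal sterol carriers STARD3 and NPC1 and the soluble carrier STARD5 had siRNA differences from -0.01 to 0.95, and the ester hydrolase LIPE stayed under the filter.

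The 4 genes of fatty acid synthesis include the enzymes that make cytosolic acetyl-CoA (ACLY), malonyl-CoA (ACACA and ACACB) and palmitate (FASN). ACLY was at 12.99 in siYT+8Br-cAMP, 13.06 in siNC+8Br-cAMP, 12.32 in siYT and 13.50 in siNC. FASN was at 9.23 in siYT+8Br-cAMP, 9.31 in siNC+8Br-cAMP, 8.76 in siYT and 9.83 in siNC. Both shared a pattern, lower in siYT than in siNC without 8Br-cAMP (by -1.19 for ACLY and -1.07 for FASN) and within 0.1 of each other with it (-0.07 and -0.09). ACACA was not lower in siYT cells, at 9.83 in siYT+8Br-cAMP, 8.91 in siNC+8Br-cAMP, 10.44 in siYT and 10.13 in siNC. ACACB was under the filter at 5.11 in siYT+8Br-cAMP, 4.32 in siNC+8Br-cAMP, 5.46 in siYT and 4.10 in siNC.

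The 5 desaturases and elongases held 3 of the 4 limma calls and had the widest range of all role groups. Beside SCD, FADS3 and ELOVL6, FADS2, which starts the synthesis of long polyunsaturated fatty acids, was at 14.07 in siYT+8Br-cAMP, 13.99 in siNC+8Br-cAMP, 15.49 in siYT and 14.00 in siNC. The siYT array alone stood above the other 3, which lay within 0.1 of each other, and limma gave a mean siRNA difference of 0.79 (adjusted p = 0.26). ELOVL5, the elongase that acts after FADS2, differed by -0.12 and 0.28 between the siRNAs. The 2 measured acyl-CoA synthetases, which activate fatty acids, were ACSL1 and ACSL4. ACSL4, which prefers arachidonic acid, was at 12.42 in siYT+8Br-cAMP, 11.40 in siNC+8Br-cAMP, 10.76 in siYT and 10.60 in siNC, so the siRNA difference was 0.16 without and 1.03 with 8Br-cAMP. The larger of these differences is 0.96 under quantile normalization. ACSL1 was at 7.55 in siYT+8Br-cAMP, 6.85 in siNC+8Br-cAMP, 6.94 in siYT and 7.03 in siNC.

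PLIN2, which coats lipid droplets, had the largest siRNA difference of the 5 storage genes. It was at 7.05 in siYT+8Br-cAMP, 6.94 in siNC+8Br-cAMP, 8.81 in siYT and 6.18 in siNC. The siYT array stood 2.63 above siNC, while the siRNA difference with 8Br-cAMP was 0.12, and limma gave a mean of 1.37 (SE 0.498, adjusted p = 0.127). The siNC value lay under the level filter, so this size depends on the background, and with log2 of the linear value plus 32 it was 2.20. DGAT2, which completes triglycerides, was at 8.76 in siYT+8Br-cAMP, 8.10 in siNC+8Br-cAMP, 9.65 in siYT and 8.27 in siNC. Both siYT arrays were above both siNC arrays, by 1.38 without and 0.66 with 8Br-cAMP (limma mean 1.02, SE 0.326, adjusted p = 0.0867). HILPDA, an inhibitor of droplet lipolysis, was at 5.82 in siYT+8Br-cAMP, 6.68 in siNC+8Br-cAMP, 5.91 in siYT and 6.15 in siNC. PLIN3, another droplet coat protein, and GPAM, which starts glycerolipid synthesis, had siRNA differences from -0.32 to 0.43.

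The 5 oxidation genes were all above the filter on all arrays, and none was called lower by the siRNA. ACADVL, the mitochondrial dehydrogenase of very long chains, was at 11.98 in siYT+8Br-cAMP, 11.44 in siNC+8Br-cAMP, 11.50 in siYT and 10.11 in siNC. The siNC array was the low one, and either treatment alone or both gave values at least 1.33 higher. HADHA, a subunit of the trifunctional protein, was at 12.79 in siYT+8Br-cAMP, 11.72 in siNC+8Br-cAMP, 12.29 in siYT and 11.55 in siNC, higher in siYT cells by 0.73 without and 1.08 with 8Br-cAMP. Neither passed in limma (ACADVL adjusted p = 0.112, HADHA adjusted p = 0.108). CPT1A, the gate of mitochondrial import, was 0.71 and 0.73 higher in siYT cells without a call. ACADM, the medium-chain dehydrogenase, was at 10.42 in siYT+8Br-cAMP, 10.64 in siNC+8Br-cAMP, 10.02 in siYT and 10.70 in siNC.

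**Figure D3:**
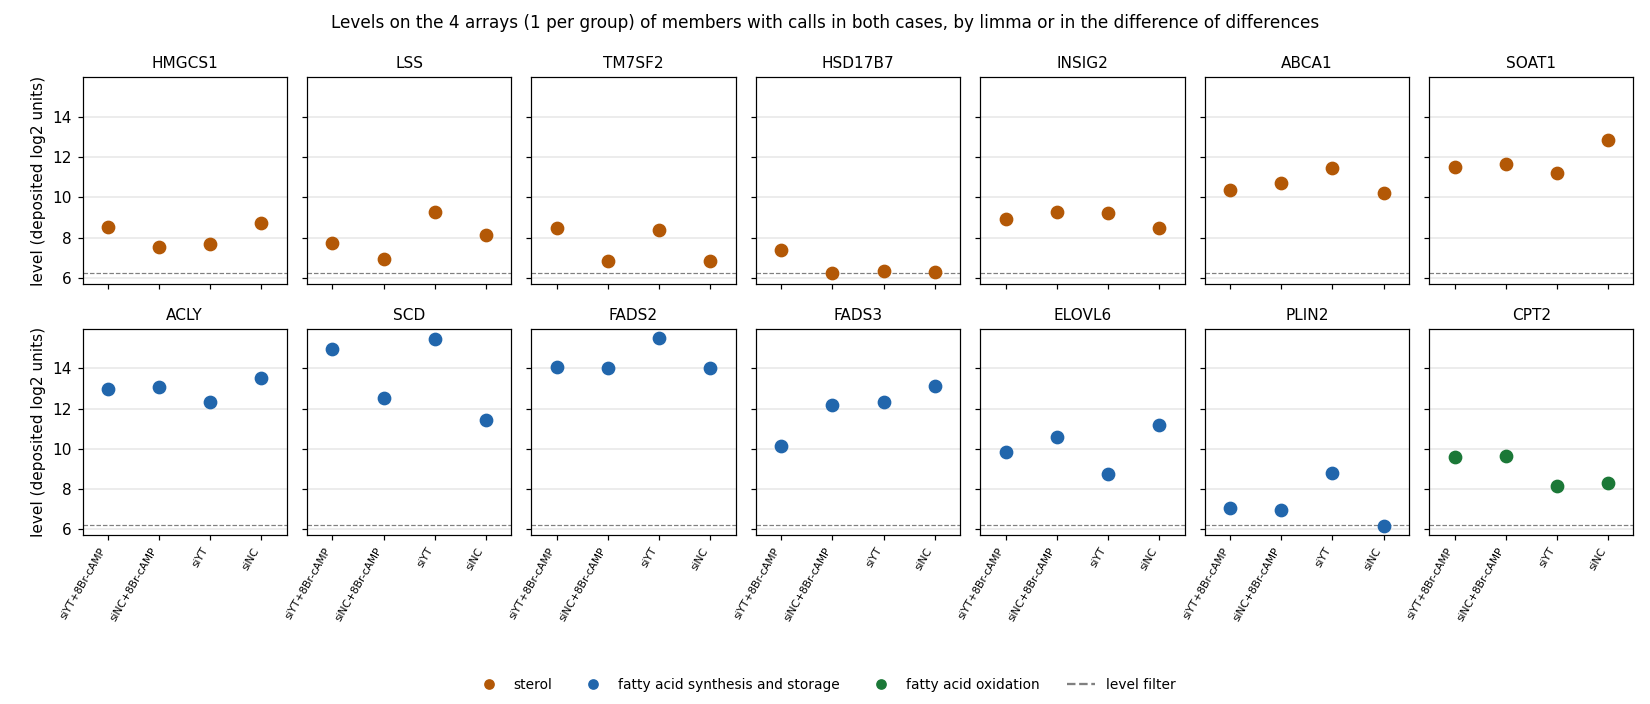
Deposited log2 levels (y axis) on the 4 arrays, in the order siYT+8Br-cAMP, siNC+8Br-cAMP, siYT and siNC, of 14 genes called by limma, in both cases of a treatment, or in the difference of differences, with 1 point per array, no error bars because each group had 1 array, and the level filter of 6.22 as a dashed line. SCD and TM7SF2 are high on both siYT arrays, CPT2 on both 8Br-cAMP arrays, and ABCA1, FADS2 and PLIN2 are highest on the siYT array.

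The next comparison asked what 24 h of 8Br-cAMP did after each siRNA. CPT2, the inner-membrane carnitine transferase of fatty acid oxidation, was higher with 8Br-cAMP after both siRNAs, and LSS was lower after both. CPT2 was at 9.61 in siYT+8Br-cAMP, 9.64 in siNC+8Br-cAMP, 8.14 in siYT and 8.31 in siNC. Both 8Br-cAMP arrays were above both others, by 1.33 after siNC (2.51-fold) and 1.46 after siYT (2.76-fold), with a limma mean of 1.40 (SE 0.307, adjusted p = 0.0521). LSS differed by -1.20 after siNC and by -1.53 after siYT, with a limma mean of -1.37 (SE 0.311, adjusted p = 0.057). FADS3 was lower too, with differences of -0.95 after siNC and -2.20 after siYT (limma mean -1.57, SE 0.363, adjusted p = 0.0601). No member passed in limma for 8Br-cAMP (0 of 50, against 1.15% of all genes that rose and 0.662% that fell). Among genes whose mean level reached the filter, 2.0% rose and 1.23% fell. At an unadjusted limma p under 0.05 there were 4 higher and 6 lower, 20.0% of the members against 14.7% of all genes. This unadjusted share was not counted over genes past the filter. CPT2, LSS and FADS3 passed the adjusted threshold under 5 of 7 alternatives.

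After siNC, 8Br-cAMP called 3 of 50 members higher (SCD, CPT2 and ACADVL), against 4.32% of all genes, and 5 lower (HMGCS1, LSS, INSIG1, SOAT1 and ACACA), against 3.74%. In these cells SCD was 1.08 higher, a size that is 0.96 under cyclic loess and 0.99 under quantile normalization. All 4 of the sterol calls were lower, -1.23 for HMGCS1, -1.20 for LSS, -1.35 for INSIG1 and -1.17 for SOAT1. After siYT, 4 members were called higher (HSD17B7, ELOVL6, ACSL4 and CPT2), against 4.06%, and 6 lower (LSS, SREBF2, ABCA1, FADS2, FADS3 and PLIN2), against 4.15%. ACSL4 had the largest of the higher ones, 1.66 (3.16-fold), and FADS3 the largest of the lower ones, followed by PLIN2 at -1.75. The shares over all members, 6.0% and 10.0% after siNC and 8.0% and 12% after siYT, lay above the background. Over genes whose mean level reached the filter the higher shares were 7.14% of members against 7.92% of genes after siNC and 9.52% against 7.14% after siYT, and the lower shares 11.9% against 6.43% and 14.3% against 7.42%.

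Called in the same direction after both siRNAs were CPT2, higher (1 of 50, against 1.58% of all genes), and LSS, lower (1 of 50, against 1.22%). INSIG1 was lower after both, by differences of -1.35 and -0.82 (limma mean -1.08, SE 0.317, adjusted p = 0.125). ACACA was also lower after both, by differences of -1.23 and -0.60 (limma mean -0.91, SE 0.321, adjusted p = 0.206). STARD4 had differences of -0.90 and -0.52, and ACSL4 was higher in both cases, by 0.79 and 1.66 (limma mean 1.23, SE 0.335, adjusted p = 0.102). Cyclic AMP differences had opposite signs after the 2 siRNAs in 20 of 50 members (40.0%, against 40.1% of all genes). The 2 differences share no array with each other, but each shares arrays with the siRNA differences above.

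**Figure D4:**
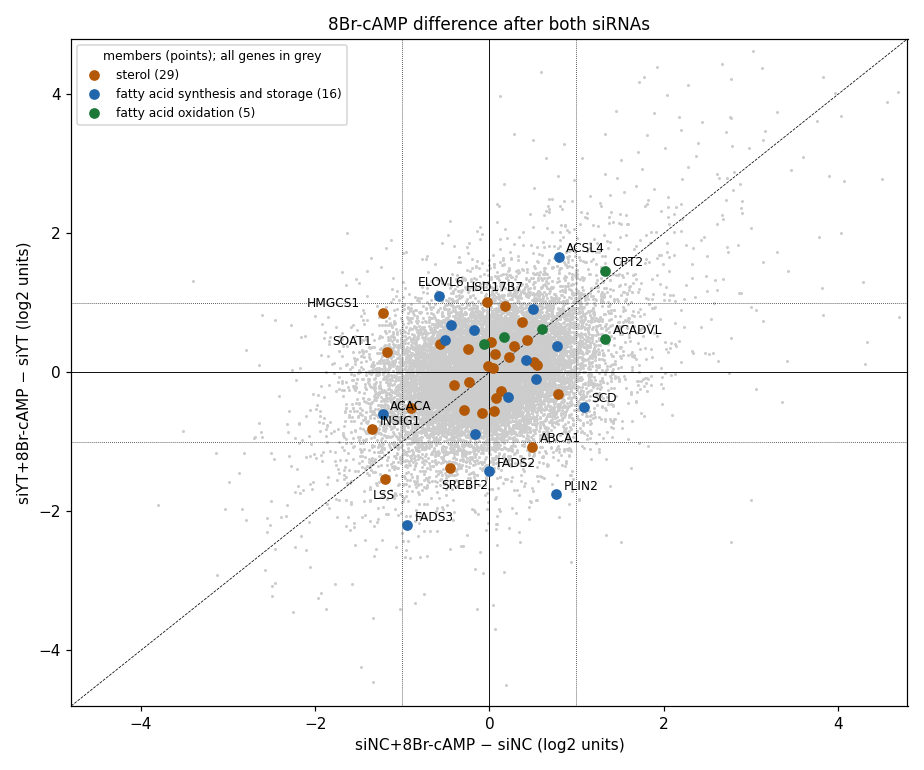
8Br-cAMP difference after siNC (x axis) against that after siYT (y axis), both in log2 units, with members coloured as sterol (brown), fatty acid synthesis and storage (blue) and fatty acid oxidation (green) over all 17687 genes in grey, dotted lines at 1 log2 unit and a dashed line of equality; 24 genes lie outside the axes of ±4.8. CPT2 lies beyond 1 on both axes, LSS below -1 on both, and PLIN2, ABCA1 and FADS2 lie below -1 on the y axis with x values of 0.76, 0.49 and -0.01.

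The difference of differences, taken as the 8Br-cAMP effect in siYT cells less that in siNC cells, asked where the treatments did not add up. It uses all 4 arrays, so no error could be attached to it. By size, 5 members were higher (HMGCS1, HSD17B7, SOAT1, ACLY and ELOVL6), or 10.0% against 3.57% of all genes, and 6 lower (INSIG2, ABCA1, SCD, FADS2, FADS3 and PLIN2), or 12% against 4.82%. Over genes whose mean level reached the filter, the shares were 11.9% of members against 5.77% of genes for higher values and 14.3% against 8.03% for lower ones. The largest were PLIN2 (-2.52) and HMGCS1 (2.08), followed by ELOVL6 (1.68), SCD (-1.58), ABCA1 (-1.57), SOAT1 (1.47), FADS2 (-1.42) and FADS3 (-1.25).

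The arrays that stood out differed between these genes. PLIN2, ABCA1 and FADS2 were highest in siYT, and with 8Br-cAMP their siRNA differences were 0.12, -0.35 and 0.07. SOAT1 was high in siNC alone, with the other 3 arrays between 11.22 and 11.68. ELOVL6 and ACLY were lowest in siYT, HSD17B7 was high only in siYT+8Br-cAMP, and HMGCS1 was high in siYT+8Br-cAMP and siNC. INSIG2 was lowest in siNC, and its difference of differences of -1.09 was short of the threshold, at -0.999, with each array centred on its median.

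The sterol genes were then set beside the genes of fatty acid synthesis and storage, with no test between these lists. Without 8Br-cAMP, 4 of 29 sterol genes were called higher and 2 lower, and 4 and 3 of 16 genes of fatty acid synthesis and storage. The sterol shares were 13.8% and 6.9% and the others 25% and 18.8%, against 7.6% and 7.32% of all genes. Among genes whose mean level reached the filter, 13.8% were called higher and 12.9% lower. The sterol shares, taken over all 29 genes, were no higher than these. With 8Br-cAMP the sterol genes had 6 higher and 0 lower (20.7% and 0%), and the other arm 2 higher and 1 lower (12.5% and 6.25%). The shares were 5.52% and 5.94% of all genes, and 9.82% and 10.5% of genes whose mean level reached the filter. The shares of each arm were not taken over its members past the filter alone. The median siRNA difference of the sterol genes was 0.33 without and 0.39 with 8Br-cAMP, and that of fatty acid synthesis and storage was 0.04 and 0.10, against 0.02 and 0.06 over all genes. The 5 oxidation genes had medians of 0.71 and 0.54.

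In absolute size, the medians of fatty acid synthesis and storage were the higher ones. The median absolute siRNA difference was 0.50 and 0.47 for the sterol genes, 0.93 and 0.68 for fatty acid synthesis and storage, and 0.43 and 0.42 for all genes, without and with 8Br-cAMP. Opposite signs in the 2 media were found in 10 of 29 sterol genes (34.5%) and 2 of 16 genes of fatty acid synthesis and storage (12.5%), against 36.2% of all genes. Over the 8 role groups of these 2 arms, the medians without 8Br-cAMP ran from -0.40 for the mevalonate steps and -0.38 for fatty acid synthesis to 0.56 for trafficking, export and esters. With it they ran from 0.04 for storage to 0.86 for the acyl-CoA synthetases, of which 2 were measured.

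The 8Br-cAMP differences of the 2 arms were set side by side in the same way. After siNC the sterol genes had 0 called higher and 4 lower (0% and 13.8%), and fatty acid synthesis and storage 1 and 1 (6.25% each), against 4.32% and 3.74% of all genes. After siYT the sterol genes had 1 and 3 (3.45% and 10.3%), and fatty acid synthesis and storage 2 and 3 (12.5% and 18.8%), against 4.06% and 4.15%. Among genes whose mean level reached the filter, the higher and lower shares were 7.92% and 6.43% after siNC. After siYT they were 7.14% and 7.42%. The median absolute 8Br-cAMP difference was 0.30 and 0.40 for the sterol genes and 0.52 and 0.64 for fatty acid synthesis and storage, after siNC and after siYT, against 0.39 and 0.37 over all genes. The median 8Br-cAMP difference of the sterol genes was 0.02 after siNC and 0.09 after siYT, that of fatty acid synthesis and storage 0.11 and 0.04, and that of the oxidation genes 0.61 and 0.51, against -0.03 and -0.02 over all genes. Calls of oxidation genes were all higher, 2 of 5 after siNC and 1 of 5 after siYT.

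Other genes of the same pathways were counted from a longer list. Of 21 further sterol genes, 7 were called higher and 3 lower by the siRNA without 8Br-cAMP, and 5 higher and 2 lower with it, and in limma 3 rose and 3 fell. The size shares were 33.3% and 14.3% without 8Br-cAMP, against 7.6% and 7.32% of all genes, and 23.8% and 9.52% with it, against 5.52% and 5.94%. The limma shares were 14.3% in each direction, against 4.3% and 4.67%. Among genes whose mean level reached the filter, 13.8% were called higher and 12.9% lower without 8Br-cAMP, and 9.82% and 10.5% with it. In limma, 7.33% of those genes rose and 7.62% fell. The shares of the further sterol genes were not taken over those past the filter alone. LRP1, a lipoprotein receptor, rose, at 12.67 in siYT+8Br-cAMP, 10.71 in siNC+8Br-cAMP, 13.13 in siYT and 10.72 in siNC (limma, adjusted p = 0.00204). MBTPS1, the first protease that cuts SREBP, rose by 1.37 without and 1.41 with 8Br-cAMP (adjusted p = 0.019 in limma), and the oxysterol-binding protein gene OSBPL9 rose by 1.44 and 1.21 (limma, adjusted p = 0.0247). LBR, the nuclear envelope protein with the same sterol reductase activity as TM7SF2, fell, at 8.48 in siYT+8Br-cAMP, 10.47 in siNC+8Br-cAMP, 9.30 in siYT and 11.53 in siNC (limma, adjusted p = 0.00226). The siRNA differences of these isoenzymes thus had opposite signs in both media, 1.54 and 1.64 for TM7SF2 and -2.23 and -1.98 for LBR. ACAT2, the thiolase that supplies HMGCS1, fell by differences of -1.95 and -1.74 (limma, adjusted p = 0.00464), and the ester hydrolase NCEH1 by -2.47 and -0.78 (limma, adjusted p = 0.0324). No further sterol gene passed in limma for 8Br-cAMP.

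Among 45 further fatty acid genes, the siRNA called 5 higher and 5 lower without 8Br-cAMP and 6 higher and 3 lower with it. In limma 2 rose and 3 fell. The size shares were 11.1% in each direction without 8Br-cAMP, against 7.6% and 7.32% of all genes, and 13.3% and 6.67% with it, against 5.52% and 5.94%. The limma shares were 4.44% and 6.67%, against 4.3% and 4.67% of all genes and 7.33% and 7.62% of genes whose mean level reached the filter. By size, 13.8% of genes past the filter were called higher and 12.9% lower without 8Br-cAMP, and 9.82% and 10.5% with it. The shares of the further fatty acid genes were not taken over those past the filter alone. PPARGC1A, the coactivator of mitochondrial biogenesis and fatty acid oxidation, was at 13.39 in siYT+8Br-cAMP, 10.14 in siNC+8Br-cAMP, 11.42 in siYT and 8.35 in siNC. It rose with the siRNA (limma, adjusted p = 0.000203) and with 8Br-cAMP (limma, adjusted p = 0.0131), and its highest value was where both met. DECR1, a reductase for the oxidation of unsaturated fatty acids, rose by 1.53 and 2.12 with the siRNA (limma, adjusted p = 0.00592). MGLL, which releases fatty acid from monoglycerides, fell by differences of -3.24 and -1.97 (limma, adjusted p = 0.00179), and the acyltransferase AGPAT5 by -1.40 and -1.02 (limma, adjusted p = 0.0383). ELOVL2, an elongase of polyunsaturated fatty acids, fell with both treatments, at 6.66 in siYT+8Br-cAMP, 7.89 in siNC+8Br-cAMP, 7.87 in siYT and 9.99 in siNC (limma, adjusted p = 0.0122 for the siRNA and 0.0377 for 8Br-cAMP). PPARD, a lipid-activated nuclear receptor, rose with 8Br-cAMP by 1.84 after siNC and 1.59 after siYT (limma, adjusted p = 0.0212). The lipase PNPLA2 was higher with 8Br-cAMP in both cases by 1.24 and 1.34, and the flavoprotein subunit ETFB by 1.05 and 1.14, without passing in limma.

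Steroid synthesis, the pathway that uses cholesterol as its substrate, had the same highest and lowest arrays in each of the 4 genes looked at. CYP11A1, which turns cholesterol into pregnenolone, was at 12.84 in siYT+8Br-cAMP, 8.94 in siNC+8Br-cAMP, 8.81 in siYT and 4.25 in siNC. STAR, the mitochondrial cholesterol importer, was at 15.90 in siYT+8Br-cAMP, 14.01 in siNC+8Br-cAMP, 10.38 in siYT and 9.84 in siNC. HSD3B2, which makes progesterone, was at 10.12 in siYT+8Br-cAMP, 8.99 in siNC+8Br-cAMP, 5.80 in siYT and 4.17 in siNC, and CYP19A1, the aromatase, was at 17.56 in siYT+8Br-cAMP, 14.26 in siNC+8Br-cAMP, 14.26 in siYT and 5.04 in siNC. All 4 were highest in siYT+8Br-cAMP and lowest in siNC. CYP11A1, HSD3B2 and CYP19A1 lay under the level filter in siNC, as did HSD3B2 in siYT, so these low values depend on the background. The arrays siYT+8Br-cAMP (highest) and siNC (lowest) also held the extremes of 10 of the 50 lipid genes (20.0%, against 13.5% of all genes). Of these, 5 were sterol genes (SC5D, SCAP, STARD5, NPC1 and ABCG1), 2 belonged to fatty acid synthesis and storage (ACSL4 and GPAM) and 3 to oxidation (CPT1A, ACADVL and HADHA). The share over genes past the filter was not counted.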

How the data were processed

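RNA of 4 KGN cultures was measured on 4 arrays, 1 per group. Per the labels, the deposited log2 levels came from RMA, run by the authors in Expression Console (Affymetrix). Its version and the annotation build are not given in the sources used here. RMA corrects background, gives arrays a shared distribution and summarises probes, which can compress differences of dim genes. Of 24351 probe sets, 17709 named exactly 1 gene and gave 17687 genes, with probe sets of 20 genes averaged.

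From these values, differences between arrays, counts and medians were computed with Python 3.11.15 and pandas 2.3.3, and an additive model was fitted to all genes with limma 3.58.1 in R 4.3.3 with Benjamini-Hochberg adjustment (1 residual and 9.24 prior degrees of freedom, median moderated SD 0.314). The fit was tested on simulated data. The labels gave the groups, and with 1 array each no replicate could be compared.

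The members and lists were chosen with earlier results of these data known. Any listed gene could be named. Each member called by size or by limma, and the highest and lowest by mean difference in each role group, was given on every array. YAP1, WWTR1 and 4 steroid genes were added. Genes named from the longer lists were those called in both cases of a treatment or by limma, except CPT1B, chosen after its values were seen. Scaling, log offset, level filter, threshold, probe set choice, variance prior and summary were varied. Promoter windows came from RefSeq.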

Additional observations from a re-analysis of the deposited data

Results flagged for a closer look

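In 9 of the 11 lipid genes whose difference of differences was called by size, a treatment had opposite signs in its 2 cases. With 1 array a group these differences were not tested. Selection by a large difference of differences makes opposite signs more likely, and the share among all genes selected this way was not counted. Over all 50 members, siRNA differences had opposite signs in 24.0%, against 36.2% of all genes. For 8Br-cAMP the shares were 40.0% and 40.1%. HMGCS1 had a difference of differences of 2.08, with both the siRNA and the 8Br-cAMP differences of opposite sign. ABCA1 likewise had -1.57, with siRNA differences of 1.21 without and -0.35 with 8Br-cAMP and 8Br-cAMP differences of 0.49 after siNC and -1.07 after siYT. INSIG2 had -1.09, and all 4 of its differences were smaller than the 2-fold threshold. In the other 6 genes only the 8Br-cAMP differences had opposite signs. For SCD the value was -1.58, and its 8Br-cAMP difference was 1.08 after siNC and -0.49 after siYT. PLIN2 had -2.52, with 8Br-cAMP differences of 0.76 after siNC and -1.75 after siYT. ELOVL6 had 1.68, with 8Br-cAMP differences of -0.58 after siNC and 1.10 after siYT. SOAT1 had 1.47, with -1.17 after siNC and 0.30 after siYT, and ACLY had 1.12, with -0.44 and 0.68 in the same cells. HSD17B7 had 1.05, with -0.03 after siNC and 1.01 after siYT, so the first of its values was close to 0.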

How the results depend on the processing

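No call of a member changed direction under any alternative run. Of 53 member differences called by size, 53 stayed called with the highest probe set per gene, 52 with each array centred on its median, 51 with cyclic loess, 51 with quantile normalization and 46 with log2 of the linear value plus 32. At 1.5-fold in place of 2-fold the calls numbered 24 against 14 for the siRNA without 8Br-cAMP, 22 against 10 with it, 15 against 8 for 8Br-cAMP after siNC, 19 against 10 after siYT and 22 against 11 for the difference of differences. With the offset of 32, siRNA calls with 8Br-cAMP were 6. In limma the siRNA called 0 members with that offset and 11 (9 higher, 2 lower) with dim genes left out, against 4. For 8Br-cAMP, limma called 3 (CPT2 higher, LSS and FADS3 lower) with arrays centred, with cyclic loess, with quantile normalization and with a variance trend, and 5 (ACSL4 and INSIG1 added) with dim genes left out, against 0. The cause was not tested. Calls over all genes were not counted under these settings, so no background stands beside these counts of members.

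Centring moved the median of all genes to at most 0.107 in a comparison. With members past the level filter alone, the sterol median siRNA difference without 8Br-cAMP was 0.43, and that of fatty acid synthesis and storage was -0.075 for the siRNA without 8Br-cAMP, -0.16 for 8Br-cAMP after siNC and 0.18 after siYT. The mean in place of the median gave -0.137 and -0.052 for the sterol genes under 8Br-cAMP after siNC and after siYT. For fatty acid synthesis and storage it gave 0.36 for the siRNA without 8Br-cAMP, -0.11 for 8Br-cAMP after siYT and -0.025 for the mean 8Br-cAMP difference. For the oxidation genes it gave 0.40 and 0.42 for the siRNA without and with 8Br-cAMP, 0.41 for their mean and 0.70 for 8Br-cAMP after siYT. The sterol median for 8Br-cAMP after siNC, 0.016, was also negative with arrays centred (-0.023), cyclic loess (-0.034), quantile normalization (-0.053) and members past the filter (-0.022). The signs of such small medians depend on the summary, the filter and, for this one, the scaling. No replicate could be left out with 1 array a group. No paired analysis was possible because each group had 1 array. Differences of MVK, PMVK, MVD, LIPE and ACACB, under the level filter on all arrays, depend on the background.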

Other observations

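FABP3 and CPT1B, outside the list, were highest in siYT, as were PLIN2, ABCA1 and FADS2. FABP3, a fatty acid carrier of the cytosol, was at 6.29 in siYT+8Br-cAMP, 6.24 in siNC+8Br-cAMP, 9.70 in siYT and 7.27 in siNC. Its siRNA difference was 2.44 without and 0.05 with 8Br-cAMP, and its 8Br-cAMP difference was -1.03 after siNC and -3.41 after siYT. CPT1B, the muscle form of the carnitine transferase of mitochondrial import, was at 7.56 in siYT+8Br-cAMP, 7.49 in siNC+8Br-cAMP, 8.74 in siYT and 7.49 in siNC. FABP3 was called lower by size with 8Br-cAMP after both siRNAs, while CPT1B was named after its values were seen. Neither gene had a replicate check.

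GGPS1, which makes geranylgeranyl diphosphate from a product of the mevalonate steps, was at 10.28 in siYT+8Br-cAMP, 9.69 in siNC+8Br-cAMP, 9.27 in siYT and 8.06 in siNC. It was higher with 8Br-cAMP after both siRNAs, by 1.63 after siNC and 1.01 after siYT (limma, adjusted p = 0.0731). ACAT2, at the entry of the same pathway, was lower with 8Br-cAMP after both.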
